A study of Homo sapiens with 8 samples.

Results

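Surface antigens of B-cell leukaemia were followed in NALM6 cells, a human leukaemia line of the precursor B type, as a list of 9 genes taken by name: CD22, CD38, MME (CD10), CD81, CD24, CD72, CD99, CD9 and CD47. Of these 9, 8 were found among the 27424 genes of the all-read table and 7 among the 6993 genes of the converted-read table. CD24 matched no row by symbol or accession and is not analysed here, and CD99 had no row among the converted reads. All 8 genes found passed the minimum mean of 1 CPM (reads scaled to library size), as did 12414 genes in all. Where a gene had several transcript rows, the row with the highest mean was kept.

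These proteins are the face that a leukaemic B cell shows to antibodies, to other cells and to the flow cytometer. CD22 and CD72 are inhibitory co-receptors that dampen the B-cell receptor, CD9 and CD81 are tetraspanins that organise membrane partners, MME and CD38 are enzymes with their active site outside the cell, and CD47, CD99 and CD24 are glycoproteins that signal to neighbouring cells. MME, CD38, CD22, CD72, CD9, CD81 and CD24 are commonly stained to recognise precursor B-cell leukaemia, and CD22 and CD38 are targets of therapeutic antibodies.

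Cells carried doxycycline-inducible HMGN1, a protein that binds nucleosomes and whose gene lies in the Down syndrome critical region. There were 3 groups. The first was cells with the S20,24E mutant, described as deficient in nucleosome binding, given doxycycline (induced mutant, 2 libraries, A and B). The others were cells with wild-type HMGN1 given doxycycline (induced wild type, 3 libraries, A to C) or vehicle (vehicle, 3 libraries, A to C). Doxycycline at 100 ng/ml or vehicle was present for 6 h, and every culture received 100 µM 4-thiouridine for the final 5 h. In SLAM-seq, here from 4 µg of RNA, transcripts made while the label is present are recognised by T-to-C conversions. Values of single libraries are given in the order of their letters. Mutant cells given vehicle are not analysed here, so the induced mutant differs from vehicle by both line and doxycycline. The labels call the replicates biological, without saying whether they were separate cultures or whether a line is 1 clone, and p-values measure only the spread between these libraries.

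The depth was 7.99 to 17.7 M reads a library, and the reads behind a member's value ran from 34 (CD99, induced wild type B) to 4413 (CD9, vehicle C). HMGN1 itself had a conversion rate of 4.64% and 2.0% in induced mutant, 4.09%, 3.24% and 7.12% in induced wild type, and 1.04%, 1.66% and 1.69% in vehicle. Every induced library stood above the 3 vehicle libraries. The exact two-sided permutation p against vehicle was 0.1 for each induced group, the smallest these group sizes allow. By limma the adjusted p of this rate against vehicle was 0.713 for induced mutant and 0.946 for induced wild type. All reads of HMGN1 stood at 223 and 200 CPM in induced mutant and 252, 217 and 317 CPM in induced wild type. In vehicle they were 191, 153 and 145 CPM, below every induced library. Against vehicle, induced mutant differed by 0.38 on the log2 scale (SE 0.23, limma adjusted p = 0.99997). Induced wild type differed by 0.67 (SE 0.20, limma adjusted p = 0.991). Exact two-sided permutation p for these levels was 0.2 and 0.1, in that order. Converted reads of HMGN1 did not set the groups apart. They stood at 4.15 and 2.62 FPKM in induced mutant and 7.75, 5.39 and 4.94 FPKM in induced wild type. In vehicle they were 2.64, 6.04 and 5.44 FPKM. Precursor B markers were read, as the line's label has it, but markers of other cell types were read too. Of 20 precursor B markers, which include 7 of the antigens, 19 were found. All 19 had a mean of at least 1 CPM, with a mean of 602 CPM for the surrogate light chain gene IGLL1. Of 8 mature B and plasma cell markers, 5 had a mean of at least 1 CPM. That list summed to 114 to 144 CPM in induced mutant, 97.4 to 169 in induced wild type and 88.2 to 164 in vehicle. XBP1 alone had a mean of 116 CPM, SDC1 9.26, CD27 3.19 and MS4A1 1.71. Of 10 T and NK cell markers, 1 had a mean of at least 1 CPM and 3 were at 0 in every library. The list summed to 3.02 to 3.86 CPM in induced mutant, 1.96 to 3.88 in induced wild type and 2.76 to 3.04 in vehicle. Of 10 myeloid markers, 4 had a mean of at least 1 CPM and 3 were at 0 in every library. The list summed to 347 to 434 CPM in induced mutant, 368 to 445 in induced wild type and 425 to 520.5 in vehicle. CSF1R alone gave 338 to 512 CPM over the 8 libraries, with a mean of 415 CPM. Of the precursor B markers found, only IGLL1 had a higher mean. Libraries also stood apart within groups. Mutant B, induced wild type B and vehicle A had the lowest share of converted bases in their groups (3.43%, 3.40% and 2.65%), against 4.67% in mutant A, 5.22% in induced wild type C and 4.52% in vehicle C. For that reason conversion rates were tested relative to the median gene of each library.

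The letters just before the transcription starts are shown here for the antigens with the highest and the lowest conversion rates. RefSeq windows on GRCh38.p14 were found for 7 of the 9 genes, and each run below is the 250 bases before the start nearest to that of the measured transcript, read in the direction of the gene. The windows lie at chr19:35328937-35329186 (CD22, plus strand), chr9:35618414-35618663 (CD72, minus strand), chr3:155079422-155079671 (MME, plus strand) and chr12:6200150-6200399 (CD9, plus strand). Capitals mark the GC box GGGCGG in MME and CD9 and the ETS-type core GAGGAA in CD72, on either strand.
CD22: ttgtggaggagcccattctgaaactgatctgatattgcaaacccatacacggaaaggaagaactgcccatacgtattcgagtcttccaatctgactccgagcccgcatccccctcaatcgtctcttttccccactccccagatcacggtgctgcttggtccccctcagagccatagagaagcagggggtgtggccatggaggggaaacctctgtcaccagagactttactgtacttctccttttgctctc
CD72: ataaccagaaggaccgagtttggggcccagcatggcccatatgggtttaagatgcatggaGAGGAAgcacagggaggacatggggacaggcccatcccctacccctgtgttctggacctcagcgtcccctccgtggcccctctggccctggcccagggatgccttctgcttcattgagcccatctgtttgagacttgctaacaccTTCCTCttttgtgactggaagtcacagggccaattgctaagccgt
MME: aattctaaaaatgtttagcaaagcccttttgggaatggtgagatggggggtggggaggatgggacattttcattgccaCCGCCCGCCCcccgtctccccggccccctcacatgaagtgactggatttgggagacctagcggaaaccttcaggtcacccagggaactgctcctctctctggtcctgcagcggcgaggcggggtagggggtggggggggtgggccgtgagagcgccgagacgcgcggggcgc
CD9: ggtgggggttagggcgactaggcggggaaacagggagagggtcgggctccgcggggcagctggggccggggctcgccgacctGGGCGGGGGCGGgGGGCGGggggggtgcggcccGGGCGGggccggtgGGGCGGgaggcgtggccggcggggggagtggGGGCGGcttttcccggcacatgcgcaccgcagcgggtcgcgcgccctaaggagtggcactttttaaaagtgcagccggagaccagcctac
The windows of CD22 and CD72 held 7 and 4 CpG and no GC box. Those of MME and CD9 held 15 and 28 CpG with 2 and 6 GC boxes, some of them overlapping. The median over 34943 human windows was 11 CpG. CD47 had 39 CpG with 6 GC boxes, CD99 had 28 with 6, and CD38 had 3 with none. Searched on both strands, GGGCGG lay in 42.5% of all windows, GAGGAA in 23.6%, the TATA box TATAAA in 10.8% and the E-box CAGGTG in 17.5%. CAGGTG was found once among the antigens, in CD38, and TATAAA in none of the 7 windows.

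Set against transcript length, the tetraspanins led the antigens. In vehicle libraries the level per kilobase of exon was 224 ± 21.8 CPM for CD9 and 140 ± 12.8 for CD81 (SD, n = 3). Next came 30.3 ± 4.90 for MME, 21.1 ± 4.72 for CD47, 9.69 ± 2.12 for CD22, 8.30 ± 0.769 for CD72, 6.37 ± 0.513 for CD99 and 2.03 ± 0.477 for CD38. MME with CD47, and CD22 with CD72, did not differ by more than their SDs together. In induced mutant the first pair could not be ordered, with 150 ± 18.6 CPM per kilobase of exon for CD9 and 151 ± 21.4 for CD81 (n = 2). The 4 transcript rows of CD22 were identical in all reads. Those of MME differed slightly, with means over all libraries of 156 to 158 CPM. Whether reads were counted over exons or over the whole gene is not known. Per kilobase of genomic span the vehicle means were 10.6 CPM for CD81, 7.21 for CD9, 1.64 for MME, 1.60 for CD22, 1.52 for CD72, 0.618 for CD47, 0.154 for CD38 and 0.114 for CD99. The order of CD9 and CD81, and the places of CD47, CD99 and CD38, therefore rest on the length used. CD99 is also uncertain because its transcripts are listed at 2 places, as given below.

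**Figure D1:**
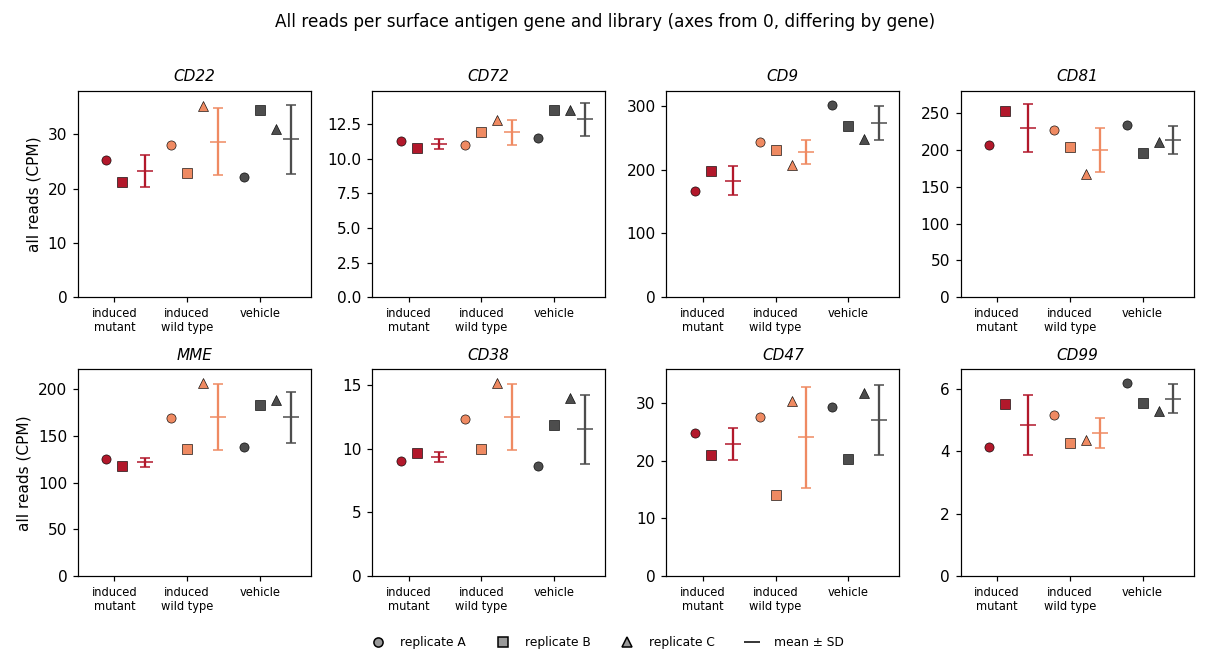
All reads (CPM, linear axis from 0) of the 8 measured antigens in each library, with induced mutant, induced wild type and vehicle from left to right; symbols give the replicate letter and bars the mean ± SD. CD9 lies at 166 to 198 CPM in induced mutant, 207 to 243 in induced wild type and 249 to 301 in vehicle, and MME lies at 118 to 125 CPM in induced mutant, below the other 6 libraries.

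The conversion rate, the share of convertible bases read as converted, spread more between the antigens than between the groups. Averaged over the 8 libraries it was 6.06% ± 0.898 for CD72, 4.92% ± 0.847 for CD22, 4.42% ± 0.586 for CD47, 3.54% ± 0.681 for CD81, 3.26% ± 0.864 for CD38, 2.92% ± 0.665 for CD99, 2.57% ± 0.636 for MME and 1.97% ± 0.673 for CD9 (SD, n = 8). All 8 lay below the median of 6.36% over the 12414 genes, CD72 closest to it with 45.8% of genes lower and CD9 farthest with 9.69% lower. The top and the bottom of the order held library by library: CD72 exceeded CD22, CD22 exceeded MME, and MME exceeded CD9 in 8 of 8 libraries. In the middle, CD81 exceeded CD38 in 5 of 8 and CD38 exceeded CD99 in 4 of 8, so these neighbours were not told apart. A rate depends on how fast a message is made and how long it lasts, and these data do not separate those, or the part of unspliced RNA.

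**Figure D2:**
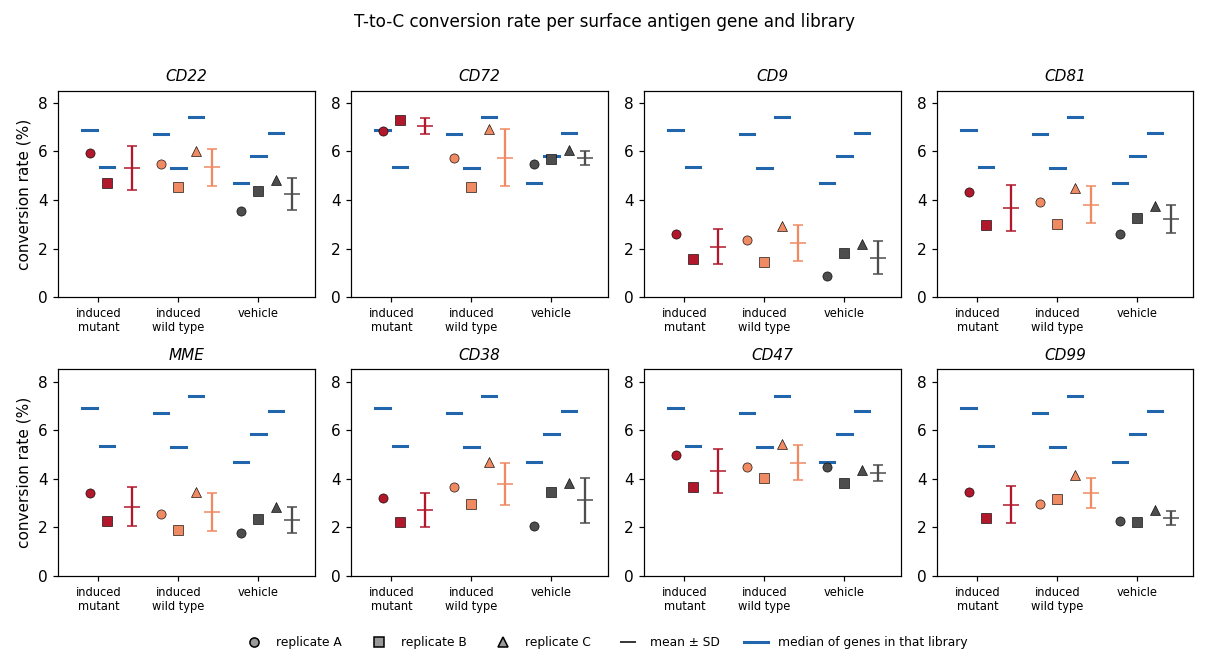
Conversion rate (percent of convertible bases, linear axis from 0) of the 8 antigens in each library, groups from left to right induced mutant, induced wild type and vehicle; blue dashes give the median gene of the same library and bars the mean ± SD. CD72 lies near the blue dashes, CD9 and MME lie far below them, and most antigens follow the dashes up and down between libraries.

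No antigen passed the test between groups in any of 3 readouts (all reads, converted reads and conversion rate) and 3 comparisons, by limma with Benjamini-Hochberg adjustment over all genes at 0.05. Against vehicle, 0 of 8 antigens were called in all reads for induced mutant, where 0.0322% of genes were, and 0 of 8 for induced wild type, where 0% were. Between induced mutant and induced wild type 0 of 8 were called, against 0.0322% of genes. In converted reads 0 of 7 were called in each comparison, and 0% of genes were called in induced mutant against vehicle, 0% in induced wild type against vehicle and 0% between the induced groups. For conversion rates 0 of 8 were called in each comparison, beside 0.00806% of genes in induced mutant against vehicle, 0.00806% in induced wild type against vehicle and 0.0161% between the induced groups. An unadjusted limma p under 0.05 was reached in induced mutant against vehicle by 1 antigen in each readout. These were CD9 in all reads (beside 449 of 12414 genes), CD81 in converted reads (667 of 5737) and CD22 in conversion rate (812 of 12414). In conversion rate CD99 reached it in induced wild type against vehicle (beside 501 of 12414 genes) and CD72 between the induced groups (574 of 12414). Called members also numbered 0 by edgeR and by DESeq2 on the recovered reads.

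**Figure D3:**
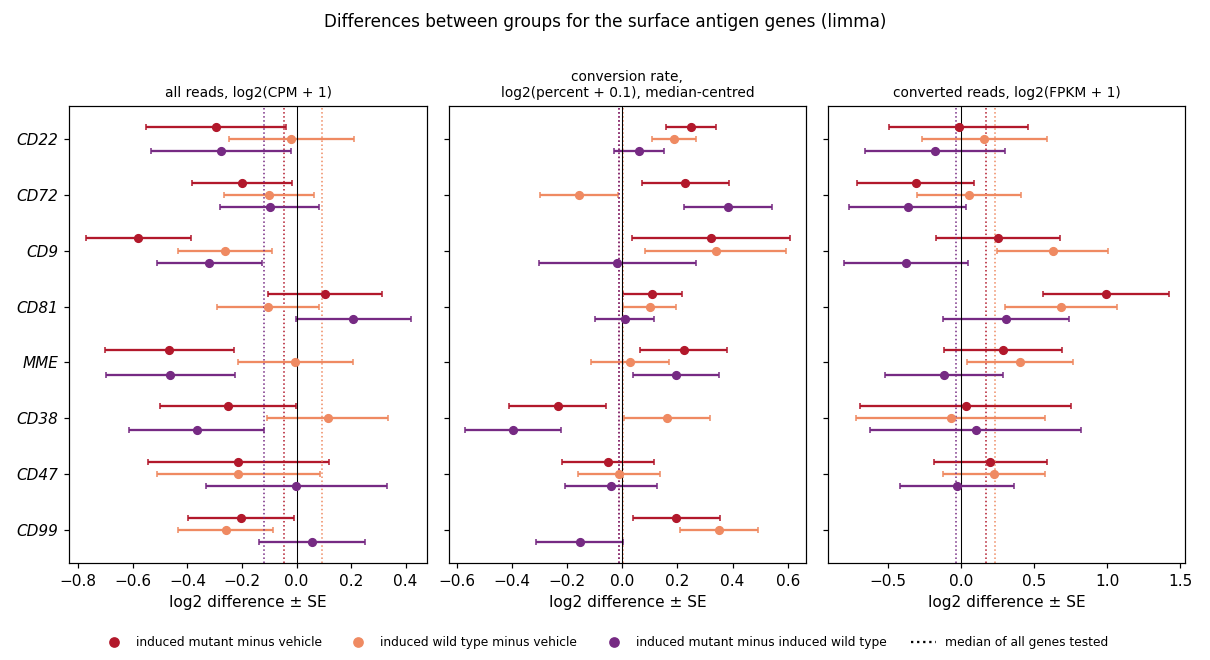
Differences of the antigens on the log2 scale with their SE, by readout: induced mutant minus vehicle, induced wild type minus vehicle, and induced mutant minus induced wild type; dotted lines give the median of all genes tested in the comparison of that colour. CD9 and MME lie farthest below 0 in all reads for the induced mutant, and CD81 lies farthest above 0 in converted reads; none passed the adjusted test.

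Of the tetraspanins, CD9 gave the largest difference of the antigens in all reads, below 0, and CD81 the largest in converted reads, above 0. The 2 directions belong to different readouts. In converted reads CD9 also lay above 0 against vehicle, by 0.25 in induced mutant and 0.63 in induced wild type on the log2 scale. With every library's median gene set equal, the first of these was -0.01. CD9, a tetraspanin of adhesion and platelet function that also marks precursor B cells, had 166 and 198 CPM in induced mutant, 243, 231 and 207 CPM in induced wild type, and 301, 269 and 249 CPM in vehicle. The 3 groups did not overlap, with induced mutant lowest and vehicle highest. In bulk RNA, fewer cells with a message and less message per cell cannot be told apart. The log2 difference of CD9 in all reads was -0.58 for induced mutant against vehicle (SE 0.19, limma adjusted p = 0.941), -0.26 for induced wild type against vehicle (SE 0.17, adjusted p = 0.991) and -0.32 between the induced groups (SE 0.19, adjusted p = 0.9995). Exact two-sided permutation p for the CD9 level was 0.1 for each induced group against vehicle, the smallest possible, and 0.2 between the induced groups. With every library's median gene set equal the 3 differences kept their sign but the groups of CD9 overlapped.

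The conversion rate of CD9 was 2.58% and 1.57% in induced mutant, 2.33%, 1.44% and 2.93% in induced wild type, and 0.868%, 1.81% and 2.19% in vehicle. The groups overlapped, and vehicle A was the lowest library. Converted reads of CD9 stood at 5.68 and 5.57 FPKM in induced mutant, 5.97, 8.26 and 8.82 FPKM in induced wild type, and 2.14, 6.31 and 6.47 FPKM in vehicle. Induced mutant lay just below induced wild type without overlap (log2 difference -0.37, SE 0.42, limma adjusted p = 0.9998), and vehicle A was again lowest, at a value equal to 4 of that library's smallest steps.

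CD81, a widely expressed tetraspanin, had 13.1 and 11.4 FPKM of converted reads in induced mutant, 9.49, 8.74 and 10.8 FPKM in induced wild type, and 2.58, 7.55 and 8.46 FPKM in vehicle. The groups did not overlap, with induced mutant highest and vehicle lowest. The log2 difference in converted reads was 0.99 for induced mutant against vehicle (SE 0.43, limma adjusted p = 0.393) and 0.69 for induced wild type against vehicle (SE 0.38, adjusted p = 0.693), with medians over all genes of 0.17 and 0.23. Between the induced groups it was 0.31 (SE 0.43, adjusted p = 0.9998). Without vehicle A, where 2.58 FPKM equals 5 of the smallest steps, the difference to vehicle was 0.55 for induced mutant and 0.24 for induced wild type. With all libraries kept and their median genes set equal, these differences were 0.73 and 0.35; induced mutant stayed above both other groups, while induced wild type and vehicle overlapped in CD81. In all reads CD81 stood at 207 and 253 CPM in induced mutant, 227, 204 and 167 CPM in induced wild type, and 234, 195 and 211 CPM in vehicle, and the groups overlapped. Its conversion rate was 4.33% and 2.99% in induced mutant, 3.91%, 3.01% and 4.50% in induced wild type, and 2.60%, 3.28% and 3.74% in vehicle. Relative to the median gene of each library the rate of CD81 was 0.583, 0.565 and 0.608 in induced wild type, just above 0.553, 0.562 and 0.553 in vehicle (log2 difference 0.10, SE 0.10, limma adjusted p = 0.946).

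**Figure D4:**
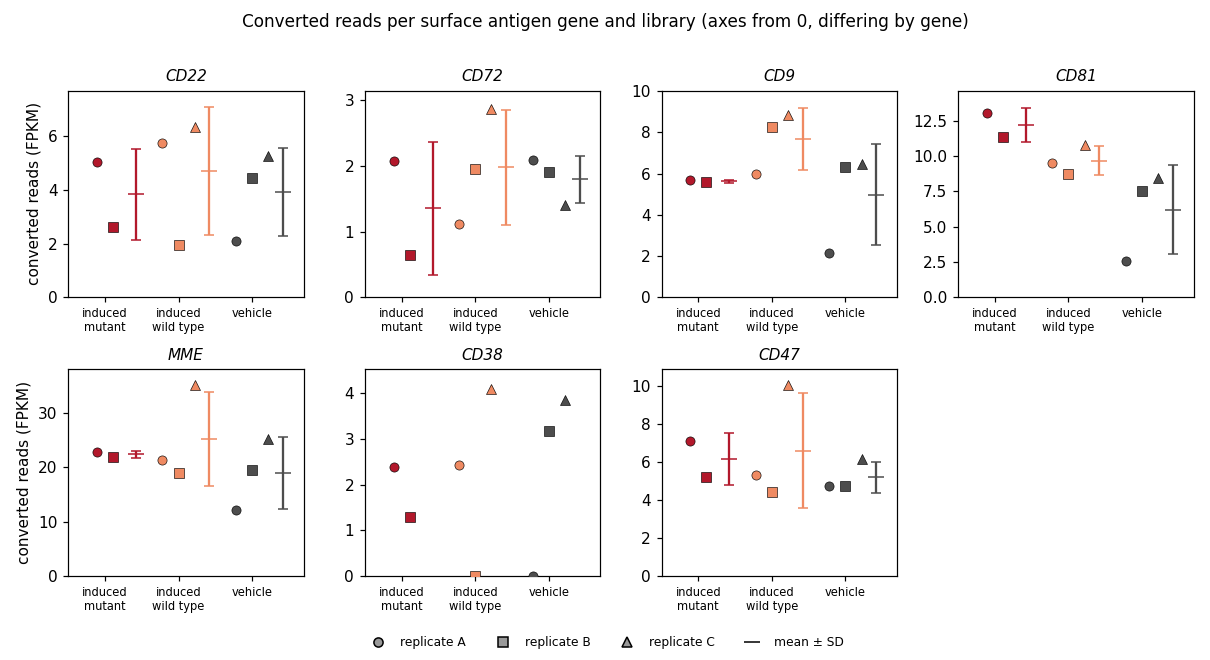
Converted reads (FPKM, linear axis from 0) of the 7 antigens in that table, in each library, groups from left to right induced mutant, induced wild type and vehicle; bars give the mean ± SD, left out for CD38, which is listed at 0 in 2 libraries. For CD81 induced mutant lies at 11.4 to 13.1 FPKM, induced wild type at 8.74 to 10.8 and vehicle at 2.58 to 8.46.

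Of 23 other tetraspanins and tetraspanin partners, 15 were measured in all reads and in conversion rate and 10 in converted reads, and none passed in any comparison. Their median log2 difference in all reads was -0.18 for induced mutant against vehicle, -0.13 for induced mutant against induced wild type and 0.04 for induced wild type against vehicle, beside -0.04, -0.12 and 0.09 over all genes. TSPAN7, a tetraspanin best known from neurons, had 0.675 and 1.81 CPM in induced mutant, 2.78, 3.01 and 1.88 CPM in induced wild type, and 3.04, 2.95 and 2.37 CPM in vehicle. For induced mutant against vehicle this gave -0.80 on the log2 scale (SE 0.26, limma adjusted p = 0.939). CD82, a tetraspanin known as a suppressor of metastasis, pointed the other way, with 11.5 and 10.9 CPM in induced mutant, 9.18, 7.51 and 10.1 CPM in induced wild type, and 3.82, 8.60 and 9.41 CPM in vehicle. In converted reads CD82 had 5.04 and 2.60 FPKM in induced mutant against 0.520, 1.27 and 1.23 FPKM in vehicle (log2 difference 1.24, SE 0.48, limma adjusted p = 0.350). Induced wild type had 0.220, 2.44 and 2.46 FPKM of CD82. The values of vehicle A and induced wild type A lay at the smallest step of these libraries. The conversion rate of CD82 was 6.36% and 6.65% in induced mutant against 4.47%, 4.38% and 5.19% in vehicle (log2 difference 0.40, SE 0.18, limma adjusted p = 0.762). TSPAN14, which escorts the sheddase ADAM10, had 21.4 and 12.4 FPKM of converted reads in induced mutant against 6.29, 7.61 and 11.6 FPKM in vehicle (log2 difference 0.90, SE 0.38, limma adjusted p = 0.380). The conversion rate of ADAM10 was 7.92% and 5.09% in induced mutant against 5.07%, 4.30% and 5.85% in induced wild type (log2 difference 0.40, SE 0.17, limma adjusted p = 0.998).

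Of the inhibitory co-receptors, CD22 kept its groups apart in conversion rate relative to the library, and CD72 had its highest rates in induced mutant; neither passed the test. CD22, a sialic acid-binding lectin whose cytoplasmic tail recruits the phosphatase SHP-1, had a conversion rate of 5.95% and 4.68% in induced mutant, 5.48%, 4.52% and 6.03% in induced wild type, and 3.54%, 4.37% and 4.83% in vehicle. As raw rates the groups overlapped. Relative to the median gene of the library CD22 stood at 0.862 and 0.872 in induced mutant, 0.819, 0.848 and 0.815 in induced wild type, and 0.753, 0.749 and 0.714 in vehicle, with no overlap between any of the groups. The log2 difference of the centred rate was 0.25 for induced mutant against vehicle (SE 0.09, limma adjusted p = 0.739), 0.19 for induced wild type against vehicle (SE 0.08, adjusted p = 0.946) and 0.06 between the induced groups (SE 0.09, adjusted p = 0.998).

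In all reads CD22 had 25.3 and 21.2 CPM in induced mutant, 27.9, 22.9 and 35.1 CPM in induced wild type, and 22, 34.4 and 30.9 CPM in vehicle. The groups overlapped, and within each group the library with the lowest converted share was also the lowest in CD22; its part in the result was not tested. With every library's median gene set equal, the level of CD22 did not overlap in any comparison. It was then lowest in induced mutant and highest in vehicle, with a log2 difference of -0.30 for induced mutant against vehicle (SE 0.16, limma adjusted p = 0.842), -0.16 for induced wild type against vehicle (SE 0.14, adjusted p = 0.943) and -0.14 between the induced groups (SE 0.16, adjusted p = 0.9999). Converted reads of CD22 stood at 5.04 and 2.62 FPKM in induced mutant and 5.76, 1.96 and 6.36 FPKM in induced wild type. In vehicle they were 2.10, 4.45 and 5.26 FPKM, and the same libraries were low. The 4 transcript rows of CD22 differed in converted reads, with means over all libraries of 2.38 to 4.19 FPKM, and the highest was used. The log2 difference of CD22 for induced mutant against vehicle was -0.30 in all reads (SE 0.26, limma adjusted p = 0.9999) and -0.02 in converted reads (SE 0.48, adjusted p = 0.994).

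CD72, a C-type lectin of B cells that binds SEMA4D, had a conversion rate of 6.82% and 7.28% in induced mutant, 5.74%, 4.55% and 6.90% in induced wild type, and 5.47%, 5.68% and 6.04% in vehicle. As raw rates both mutant libraries exceeded the 3 vehicle libraries (exact two-sided permutation p = 0.1, the smallest possible). Relative to the median gene of the library the rate of CD72 was 0.989 and 1.36 in induced mutant, 0.856, 0.855 and 0.934 in induced wild type, and 1.16, 0.975 and 0.892 in vehicle, so on that scale induced mutant stood clear of induced wild type only. The log2 difference of the centred rate was 0.38 between the induced groups (SE 0.16, limma adjusted p = 0.998) and 0.23 for induced mutant against vehicle (SE 0.16, adjusted p = 0.816). Without induced mutant B, whose rate comes from 125 reads, these were 0.18 and 0.02.

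In all reads CD72 had 11.3 and 10.8 CPM in induced mutant, 11, 11.9 and 12.8 CPM in induced wild type, and 11.5, 13.5 and 13.5 CPM in vehicle, a small gap between induced mutant and vehicle (log2 difference -0.20, SE 0.18, limma adjusted p = 0.9999). Its converted reads lay near the floor of the table, from 0.640 FPKM in induced mutant B, which equals 2 of the smallest steps, to 2.87 FPKM in induced wild type C, and the groups overlapped.

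Of 20 genes of CD22 and CD72 signalling, 16 were measured in all reads and conversion rate and 15 in converted reads, and none passed. Their median log2 difference in converted reads was 0.60 for induced mutant against vehicle and 0.22 for induced wild type against vehicle, beside 0.17 and 0.23 over all genes. PLCG2, the phospholipase downstream of the B-cell receptor, had 18.7 and 13.3 FPKM of converted reads in induced mutant, 10.2, 8.77 and 15.4 FPKM in induced wild type, and 3.14, 6.65 and 6.12 FPKM in vehicle. For induced mutant against vehicle this gave 1.47 on the log2 scale (SE 0.40, limma adjusted p = 0.214). LYN, the kinase that phosphorylates the tail of CD22, had 4.15 and 3.59 FPKM in induced mutant, 2.01, 3.91 and 3.27 FPKM in induced wild type, and 1.57, 0.640 and 1.59 FPKM in vehicle (log2 difference 1.13, SE 0.37, limma adjusted p = 0.283). For both genes every induced library exceeded every vehicle library. The 0.640 FPKM of LYN in vehicle B was near the smallest step of that library, 0.3175 FPKM. In converted reads 28.2% of all genes did not overlap between induced mutant and vehicle, and 12.0% between induced wild type and vehicle. In conversion rate PLCG2 gave a log2 difference of 0.26 (SE 0.11, limma adjusted p = 0.752) and SEMA4D of 0.22 (SE 0.13, adjusted p = 0.787), both for induced mutant against vehicle. In all reads the smallest p in the list belonged to VAV1 and to PLCG2, with log2 differences of 0.33 (SE 0.22) and 0.44 (SE 0.35) for induced wild type against vehicle (limma adjusted p = 0.991 for each).

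MME and CD38, the ectoenzymes, were lower in the induced mutant than in induced wild type in all reads, without overlap and without passing the test. MME, or CD10, the neutral endopeptidase that trims small peptides and the common antigen of this leukaemia, had 125 and 118 CPM in induced mutant, 170, 136 and 206 CPM in induced wild type, and 138, 184 and 188 CPM in vehicle. Both mutant libraries lay below all 6 others, whereas induced wild type and vehicle overlapped throughout. The log2 difference of MME in all reads was -0.47 for induced mutant against vehicle (SE 0.24, limma adjusted p = 0.9999), -0.46 for induced mutant against induced wild type (SE 0.24, adjusted p = 0.9995) and -0.00 for induced wild type against vehicle (SE 0.21, adjusted p = 0.997). With every library's median gene set equal, the mutant libraries stayed below each other group without overlap. On that scale induced wild type also lay below vehicle without overlap in MME, by -0.15 (SE 0.14, limma adjusted p = 0.943). The exact two-sided permutation p for MME was 0.2 for induced mutant against each other group. Mutant B, induced wild type B and vehicle A, the libraries with few converted bases, were the lowest of their groups in MME; its part in the result was not tested.

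The conversion rate of MME was 3.43% and 2.28% in induced mutant, 2.54%, 1.90% and 3.46% in induced wild type, and 1.77%, 2.34% and 2.83% in vehicle. Relative to the median gene of the library it was 0.498 and 0.425 in induced mutant, just above 0.376, 0.401 and 0.418 in vehicle (log2 difference 0.22, SE 0.16, limma adjusted p = 0.816). MME had the highest converted reads of the antigens as listed, in values that show no trace of transcript length. Its measured transcript holds 5.62 kb of exon, against 1.52 kb for CD81 and 1.22 kb for CD9. Converted reads of MME stood at 22.8 and 21.8 FPKM in induced mutant and 21.4, 19.0 and 35.0 FPKM in induced wild type. In vehicle they were 12.1, 19.4 and 25.2 FPKM. Those groups overlapped, with log2 differences of 0.29 for induced mutant (SE 0.41, limma adjusted p = 0.853) and 0.40 for induced wild type (SE 0.36, adjusted p = 0.788) against vehicle. Without vehicle A these MME differences were 0.013 and 0.13.

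CD38, the enzyme that consumes NAD to make cyclic ADP-ribose, had 9.07 and 9.65 CPM in induced mutant, 12.4, 10.0 and 15.1 CPM in induced wild type, and 8.66, 11.9 and 14.0 CPM in vehicle. Induced mutant lay below induced wild type without overlap, and vehicle A was the lowest of all (log2 difference -0.37 between the induced groups, SE 0.25, limma adjusted p = 0.9995). Its conversion rate was 3.21% and 2.21% in induced mutant, 3.68%, 2.98% and 4.69% in induced wild type, and 2.05%, 3.46% and 3.81% in vehicle. Relative to the median gene of the library CD38 stood at 0.465 and 0.413 in induced mutant, below 0.550, 0.559 and 0.635 in induced wild type (log2 difference -0.40, SE 0.17, limma adjusted p = 0.998). Among converted reads CD38 was listed at 0 in induced wild type B and in vehicle A, which had 80 and 77 reads of the gene in all, and at 1.30 to 4.10 FPKM in the other 6 libraries.

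Of 15 genes of ectoenzymes and of NAD and peptide turnover, 10 were measured in all reads and conversion rate and 4 in converted reads, and none passed. Their median log2 difference in all reads for induced mutant against vehicle was -0.08, beside -0.04 over all genes. ECE1, a metallopeptidase related to MME, had 14.3 and 13.6 CPM in induced mutant, 12.9, 9.39 and 13.5 CPM in induced wild type, and 8.21, 11.6 and 10.3 CPM in vehicle. In converted reads ECE1 had 5.94 and 4.23 FPKM in induced mutant, 3.10, 1.95 and 3.48 FPKM in induced wild type, and 1.57, 1.91 and 1.58 FPKM in vehicle, with no overlap among the groups. For induced mutant against vehicle this gave 1.17 on the log2 scale (SE 0.35, limma adjusted p = 0.244). The 1.95 FPKM of induced wild type B and the 1.91 FPKM of vehicle B lay closer than the smallest steps of these libraries, 0.4875 and 0.3175 FPKM. ADAM17, a sheddase, gave log2 differences of 0.78 in converted reads for induced mutant against vehicle (SE 0.43, limma adjusted p = 0.525) and -0.42 in all reads for induced mutant against induced wild type (SE 0.29, adjusted p = 0.9995). BST1, the paralogue of CD38, had a conversion rate of 2.25%, 4.04% and 5.68% in induced wild type against 0.467%, 0.485% and 4.10% in vehicle (log2 difference 1.64, SE 0.72, limma adjusted p = 0.946). NMNAT1, which makes nuclear NAD, had 5.60% and 6.52% in induced mutant against 7.01%, 7.36% and 9.02% in vehicle (log2 difference -0.42, SE 0.21, limma adjusted p = 0.766).

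CD47, the ligand of SIRPA that tells phagocytes not to engulf the cell, varied more between libraries than between groups. It had 24.9 and 21.0 CPM in induced mutant, 27.7, 14.2 and 30.4 CPM in induced wild type, and 29.4, 20.3 and 31.8 CPM in vehicle. Induced wild type B was lowest, at 113 reads, and the groups overlapped. Its conversion rate was 4.97% and 3.68% in induced mutant, 4.49%, 4.04% and 5.45% in induced wild type, and 4.50%, 3.84% and 4.37% in vehicle, and its converted reads were 7.12 and 5.21 FPKM, 5.33, 4.40 and 10.0 FPKM, and 4.72, 4.75 and 6.15 FPKM in the same order of groups. The log2 differences of CD47 were between -0.21 and 0.23 over the 3 readouts and comparisons, with SEs of 0.15 to 0.39.

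CD99, a glycoprotein of adhesion and leukocyte passage encoded in the region shared by the X and Y chromosomes, was the least read of the antigens. It had 4.15 and 5.52 CPM in induced mutant, 5.14, 4.26 and 4.35 CPM in induced wild type, and 6.19, 5.56 and 5.30 CPM in vehicle. Induced wild type lay below vehicle without overlap (log2 difference -0.26, SE 0.17, limma adjusted p = 0.991; exact two-sided permutation p = 0.1, the smallest possible), and the induced mutant libraries spanned most of that range. With every library's median gene set equal, the CD99 levels of induced wild type and vehicle overlapped. The conversion rate of CD99 was 3.47% and 2.40% in induced mutant, 2.98%, 3.15% and 4.14% in induced wild type, and 2.26%, 2.21% and 2.73% in vehicle. As raw rates induced wild type exceeded vehicle without overlap (exact p = 0.1), while relative to the median gene the 0.444 of induced wild type A lay below the 0.480 of vehicle A (log2 difference of the centred rate 0.35, SE 0.14, limma adjusted p = 0.946). CD99 is uncertain, because its 2 accessions are each listed at 2 places whose sequence the reads may not tell apart. Of these places, 1 holds 0 to 0.145 CPM and the other the values given here. How reads were shared between the places is not known, so the CD99 level may be incomplete.

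Of 17 partners and relatives of CD47, CD24 and CD99, 9 were measured in all reads and conversion rate and 3 in converted reads, and none passed. Their median log2 difference for induced mutant against vehicle was -0.19 in all reads, beside -0.04 over all genes. In all reads PILRB, an activating receptor whose mouse counterpart binds a CD99-like ligand, gave -0.66 between the induced groups (SE 0.33, limma adjusted p = 0.9995), and LRP1, the phagocyte receptor for calreticulin, gave -0.37 for induced mutant against vehicle (SE 0.24, adjusted p = 0.9999). In conversion rate LRP1 had 5.95% and 6.09% in induced mutant, 5.63%, 3.03% and 5.15% in induced wild type, and 2.88%, 2.74% and 5.46% in vehicle. For induced mutant against vehicle this gave 0.69 on the log2 scale (SE 0.27, limma adjusted p = 0.750). CD99L2, the relative of CD99, gave 0.32 in conversion rate for induced wild type against vehicle (SE 0.16, limma adjusted p = 0.946). In converted reads QPCTL, the cyclase that modifies CD47 so that SIRPA binds it, gave -0.41 (SE 0.33, limma adjusted p = 0.766) and calreticulin (CALR) -0.35 (SE 0.39, adjusted p = 0.836) for induced wild type against vehicle.

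Among 35 other surface antigens of B-cell leukaemia, 22 were measured in all reads and conversion rate and 8 in converted reads, and none passed. Their median log2 difference in all reads was -0.18 for induced mutant against each other group, beside -0.04 against vehicle and -0.12 against induced wild type over all genes. CD52, the small lipid-anchored target of alemtuzumab, had 3.86 and 5.52 CPM in induced mutant, 7.99, 8.01 and 6.16 CPM in induced wild type, and 9.67, 8.51 and 8.0 CPM in vehicle, with induced mutant below the other 6 libraries. Against vehicle this gave -0.79 on the log2 scale (SE 0.21, limma adjusted p = 0.662). ITGA6, an integrin chain for laminin, had 4.82 and 4.91 CPM in induced mutant, 7.99, 6.76 and 11.2 CPM in induced wild type, and 6.86, 7.38 and 6.93 CPM in vehicle. Against induced wild type this gave -0.69 on the log2 scale (SE 0.22, limma adjusted p = 0.9995). In converted reads IL7R, the receptor chain for interleukin 7, had 1.48 FPKM and a listed 0 in induced mutant against 2.20, 1.48 and 3.51 FPKM in induced wild type (log2 difference -1.07, SE 0.46, limma adjusted p = 0.9998). In conversion rate for induced mutant against vehicle, the integrin chains differed in sign, with 0.56 for ITGB1 (SE 0.17, limma adjusted p = 0.713) and -0.38 for its partner ITGA4 (SE 0.14, adjusted p = 0.739).

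The antigens whose libraries did not overlap between groups were counted beside the same share of all genes. In all reads 3 of 8 antigens did not overlap between induced mutant and vehicle (CD9, MME and CD72, all lower in mutant), where 16.0% of genes did not, and 3 of 8 between the induced groups (CD9, MME and CD38, all lower in mutant), where 15.0% did not. Between induced wild type and vehicle 2 of 8 did not overlap (CD9 and CD99, lower when induced), against 4.02% of genes. These shares of genes hold both directions. In induced mutant 1418 genes were lower and 568 higher than in vehicle, and 1634 lower and 224 higher than in induced wild type. In induced wild type 185 were lower and 314 higher than in vehicle. In converted reads 1 of 7 did not overlap for induced mutant against vehicle (CD81), against 28.2% of genes, 1 of 7 for induced wild type against vehicle (CD81), against 12.0%, and 2 of 7 between the induced groups (CD81 higher and CD9 lower in mutant), against 17.0%. In the centred conversion rate 2 of 8 did not overlap for induced mutant against vehicle (CD22 and MME, higher), against 22.5% of genes, 2 of 8 for induced wild type against vehicle (CD22 and CD81, higher), against 9.50%, and 3 of 8 between the induced groups (CD22 and CD72 higher and CD38 lower in mutant), against 21.0%. The members counted changed with the scaling. In all reads with medians set equal they were CD22, CD38 and MME for induced mutant against vehicle (3 of 8, against 21.5% of genes) and the same 3 between the induced groups (against 16.5%). For induced wild type against vehicle they were CD22 and MME (2 of 8, against 6.40%). All of these were lower in the mutant, or in induced wild type where that was set against vehicle. In converted reads with medians set equal CD81 was the 1 of 7 for induced mutant against vehicle (33.4% of genes) and between the induced groups (22.7%), and 0 of 7 remained for induced wild type against vehicle (13.3%). In raw conversion rates the count was 1 of 8 for induced mutant against vehicle (CD72, against 12.0% of genes), 1 of 8 for induced wild type against vehicle (CD99, against 6.17%) and 0 of 8 between the induced groups (against 12.3%). The 3 comparisons share libraries and are not independent of each other, and with so few antigens these shares were not tested against those of all genes. In all reads the median log2 difference of the 8 antigens was -0.23 for induced mutant against vehicle, -0.10 for induced wild type against vehicle and -0.19 between the induced groups, beside -0.04, 0.09 and -0.12 over all genes.

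The gene most like each antigen across the 8 libraries, among 3795 genes with a mean of at least 20 CPM, was found by Pearson's r of log2(CPM + 1). It was CANX for CD22 (r = 0.992), NXF1 for CD38 (0.997), LRPPRC for MME (0.994), RPS19BP1 for CD81 (0.976), MTHFD1 for CD72 (0.881), SF3B14 for CD99 (0.968), RPL4 for CD9 (0.986) and TRMU for CD47 (0.970). These are the highest of many values over 8 points that share library differences, and are given as a description.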

How the data were processed

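The authors deposited, per RefSeq transcript and library, a CONVERSION and a CPM column and a table of converted reads, per the file headers. The reads map to hg19 (GRCh37) per the submitters' processing notes; how reads were aligned, how conversions were called and whether strand was used is not given in the sources used here. CPM columns, as deposited, were treated as a signal, since transcripts of 1 gene repeat the same reads and columns do not sum to a library; 100% of values were whole reads within 0.1 read of a single step a library. The deposited CONVERSION values are a fraction of bases, printed here as percent: of 29863 values from a single read, 41.9% lay between 0 and 1. The converted reads were deposited as FPKM, in steps of 0.175 to 0.523 by library without trace of transcript length, and used as deposited.

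Libraries were grouped by title and treatment. A symbol was missing for 25396 of 61177 rows, of which 24846 were named through RefSeq (GRCh38.p14, names only), and exon lengths came from GENCODE 29 by accession. The members and lists were chosen with earlier results of these data known. Genes with a mean of at least 1 were fitted in limma 3.58.1 (R 4.3.3), all 8 libraries in 1 model without covariates, as log2(value + 1) for CPM and FPKM, which understates changes of low genes, and as log2(percent + 0.1) minus the library median for the conversion rate. Rates printed relative to the median gene of a library used a higher CPM floor for that median than the fit. These ratios and the log2 differences of centred rates are therefore not on exactly the same scale. Adjusted p-values are Benjamini-Hochberg over all genes tested, called below 0.05. Single values used exact two-sided permutation tests. edgeR 4.0.16 and DESeq2 1.42.0 on the recovered reads were alternatives, with other pseudocounts, filters, scalings, transcript rows and each library left out. The scripts were tested on simulated data. From each list, where none was called, the 2 measured genes with the smallest p per readout were named. Some genes that this rule takes are not reported here. Other software was Python 3.11.15 with matplotlib 3.10.9, numpy 2.4.6 and pandas 2.3.3. Replicate letters were not used to pair the libraries in the main fit. Overlapping and antisense genes cannot be told apart in these tables.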

Additional observations from a re-analysis of the deposited data

How the results depend on the processing

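The count of called antigens was 0 in all 162 recomputations, over 3 readouts, 3 comparisons and every alternative run, edgeR, DESeq2 and each library left out included. The lowest adjusted p of an antigen among them was 0.194, for MME in all reads, induced mutant against vehicle, by DESeq2 (log2 difference -0.44). Of the 69 log2 differences, 38 kept their sign under every alternative and 31 changed it under at least 1, the largest of those at a size of 0.36, and 29 of 1236 recomputed values moved by 1 SE or more; the cause was not tested. CD9 in all reads ranged from -0.71 to -0.45 for induced mutant against vehicle, and MME from -0.61 to -0.35. The conversion rate of CD22 ranged from 0.16 to 0.32 in that comparison, the highest value being that without median-centring. The rate of CD99 for induced mutant against vehicle was -1.0 as a mean over its transcript rows. Over all genes in all reads, edgeR with TMM scaling called 3 for induced mutant against vehicle, 0 for induced wild type against vehicle and 3 between the induced groups. Calls for induced mutant against vehicle numbered 75 by DESeq2 against 4 by limma in all reads, and in converted reads 11 with medians set equal and 23 with a mean-variance trend in limma, an alternative chosen after seeing the data, against 0. In the conversion rate calls without a filter on low values numbered 57 for induced mutant against vehicle, 33 for induced wild type against vehicle and 70 between the induced groups, against 1, 1 and 2. Setting medians equal shifted the all-gene median in all reads to -0.05 for induced wild type against vehicle, from 0.09. With a replicate block 0 antigens were called, and CD9 in all reads was -0.65 for induced mutant against vehicle. Between induced wild type and vehicle, deviations of same-lettered libraries gave r = 0.38 for A, -0.56 for B and 0.81 for C. Between the induced groups r was -0.47 for A and 0.72 for B, and between induced mutant and vehicle -0.83 and -0.66. Deviations within a group of 2 or 3 libraries offset each other, so these values cannot decide whether the letters pair the libraries. With 34 to 4413 reads behind a value and 2 or 3 libraries a group, even differences well beyond their SE were not called. CD9 in all reads for induced mutant against vehicle was -0.58 (SE 0.19, limma adjusted p = 0.941). The conversion rate of HMGN1 for induced wild type against vehicle was 1.47 on the log2 scale (SE 0.28, limma adjusted p = 0.946). A count of 0 called antigens therefore does not show that the groups were alike.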
